A study of Mus musculus with 2 samples.

Results

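The 33 genes described here encode glucose and lactate transporters, the enzymes of glycolysis and of the pentose phosphate pathway, and the enzymes that steer pyruvate. They were chosen by name for their place in these pathways, and all 33 were among the 28692 genes listed in the files. Glycolysis splits glucose into pyruvate and yields ATP without oxygen. The pentose phosphate pathway branches from it at glucose 6-phosphate and supplies NADPH and the ribose of nucleotides, and fructose bisphosphatase runs a glycolytic step in reverse. Proliferating blood progenitors and thymocytes are known to draw on these routes, and many steps can be run by isozymes with different regulation.

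The cells were wild type Sca-1+ cKit+ hematopoietic stem and progenitor cells (HSPCs) of the E13.5 CD1 mouse fetal liver, after depletion of TER-119+ cells. They were seeded at 1000 cells per well on DL4 (10 µg/mL), a Notch ligand, together with VCAM-1 (2.32 µg/mL), which binds integrins, a culture that moves progenitors toward the T-cell lineage. The 2 droplet libraries, FL001 and FL002, carry this same label. Cells captured after different lengths of culture were pooled, and no source used here says which lengths a library holds or whether the libraries came from separate cultures, so the spread between them may be technical. The paper also describes cells captured without culture. Cells of different gates may thus differ in length of culture, and differences between gates cannot be told apart from it.

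Cells were placed in 5 gates by raw UMIs, the counts of tagged mRNA molecules. The progenitor gate needed 2 or more UMIs of *Lmo2* and *Mef2c* together and at most 1 of *Cd3g*, and the early gate at most 2 of *Cd3g* and at most 1 of *Lmo2* and *Mef2c*. The Cd3g gate needed 3 or more UMIs of *Cd3g* and none of *Il2ra*, the Il2ra gate 1 or more of *Il2ra*, and the commitment gate 2 or more of *Ptcra*, *Lef1* and *Bcl11b* together. None of the 33 genes is used by a gate. In FL001 the gates held 428, 381, 327, 738 and 451 of 1788 kept cells in this order, and in FL002 724, 1134, 873, 1668 and 501 of 4100. Cells may pass several gates: 275 cells of FL001 and 291 of FL002 were in both the Il2ra and the commitment gate. The Cd3g and commitment gates shared 168 cells in FL001 and 198 in FL002.

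The kept cells had a median of 7722 UMIs in FL001 and 4752.5 in FL002, with gate medians of 6998 to 8014.5 and 4175 to 5649.5, and 10 barcodes were kept in both libraries. The 9 T-lineage markers went along the gates from a summed 76.1 and 92.5 CPM (UMIs scaled to a common total in each gate) in the progenitor gate to 1513 and 1465 CPM in the commitment gate, while the 9 progenitor markers went from 871 and 863 to 83.4 and 94.2 CPM (FL001 and FL002 in all such pairs). The progenitor and early gates also held markers of other blood cells, and so did the Il2ra gate, more in FL001 than in FL002. The 11 neutrophil/monocyte markers summed to 2527 and 1668 CPM in the progenitor gate and 3775 and 1134 CPM in the early gate, against 31.1 and 88.3 CPM in the commitment gate. In the Il2ra gate they were at 277 and 139 CPM, and the 12 erythroid markers at 243 and 71.7 CPM. The 12 erythroid markers ran from 505 and 224 CPM in the progenitor gate to 69.7 and 53.2 CPM in the commitment gate, and the 8 megakaryocyte markers from 721 and 384 to 13.7 and 12.2 CPM. Markers of 2 other lists went up between these gates. The 8 innate lymphoid/NK markers went from 202 and 177 to 515 and 519 CPM. The 6 mast/basophil markers went from 63.4 and 74.8 to 117 and 102 CPM. Fits below without other blood cells did not use these 2 lists.

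Differences between gates were tested with edgeR on UMIs summed per library and gate, with the library as a block and Benjamini-Hochberg adjustment over all genes tested. Cells in both gates of a comparison were left out of it. A gene was called at an adjusted p under 0.05. Differences are given as log2 ± SE (n = 2 libraries). The SE was derived from the F statistic of the test and is not the spread between the 2 libraries. With 1 residual degree of freedom a comparison, the p-values and these SEs rest largely on the spread shared by all genes. For the early and Cd3g gates against the progenitor gate the tool gave all genes a common prior. It was strong enough that the gene's own spread had no weight. An exact permutation test over 2 paired libraries cannot give a p below 0.5. Intervals are 95% exact Poisson or binomial intervals and cover counting error only.

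The summed share of the 33 genes moved little between gates. In FL001 they took 0.600%, 0.655%, 0.657%, 0.615% and 0.611% of all UMIs in the progenitor, early, Cd3g, Il2ra and commitment gates. In FL002 the shares were 0.578%, 0.593%, 0.570%, 0.541% and 0.528%. The commitment gate was thus 0.611% [0.603, 0.620] against 0.600% [0.592, 0.607] in the progenitor gate of FL001, and 0.528% [0.519, 0.537] against 0.578% [0.571, 0.586] in FL002, so the libraries went opposite ways. No test was made of these shares. The share over single cells of the commitment gate had a median of 0.568% with quartiles of 0.442% and 0.680% in FL001, a wider range than that between gates. The range over cells includes the counting error of single cells, which had a median of 6998 UMIs there. The shares of whole gates hold far less of this error, and the range over cells was not split from it. Empty droplets, which hold free RNA only, were at 0.624% and 0.566%, close to the 0.623% and 0.565% of all kept cells.

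**Figure D1:**
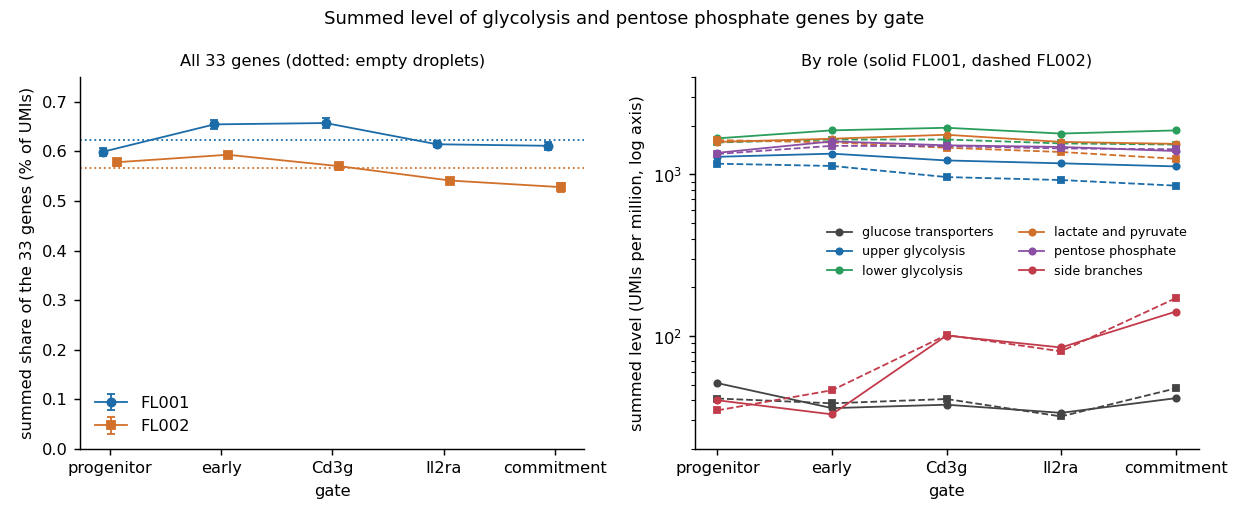
Summed share of the 33 genes in percent of UMIs (left, from 0, with 95% Poisson intervals) and summed CPM of each role group on a log axis (right) by gate in FL001 and FL002. Shares lie between 0.528% and 0.657%, while the side branches group, which holds *Fbp1*, goes from 39.9 and 34.6 CPM in the progenitor gate to 141 and 171 CPM in the commitment gate.

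Beneath this level sum, single genes moved in both directions, and the median log2 difference over the tested members lay between -0.11 and 0.02 in the 5 comparisons, against -0.01 to 0.00 over all genes. In each comparison 32 of the 33 genes had the 40 UMIs required, and the gene left out was *Aldoc* in the 3 comparisons with the progenitor gate and *Slc16a3* in the other 2. From the progenitor to the early gate 5 members rose (15.6%; all genes tested 10.7%) and 3 fell (9.38%; all genes 10%). From the progenitor to the Cd3g gate 6 rose (18.8%; all genes 15.4%) and 6 fell (18.8%; all genes 15.1%). The Il2ra gate against the Cd3g gate had 0 higher (all genes 0.484%; 0 also by DESeq2) and 3 lower (9.38%; all genes 0.329%). The commitment gate against the other cells of the Cd3g or Il2ra gate had 4 higher (12.5%; all genes 7.11%) and 9 lower (28.1%; all genes 7.28%), and against the progenitor gate 7 higher (21.9%; all genes 17.6%) and 8 lower (25%; all genes 16.1%). The members' shares were thus near those of all genes against the progenitor gate. They were farthest above them among lower calls of the commitment gate against other Cd3g or Il2ra cells and of the Il2ra gate. In these 2 comparisons 10 of 13 and 3 of 3 called members changed under 1.5-fold. Members and all genes were not matched in abundance. The 3 comparisons with the progenitor gate share its cells.

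These counts differed between tests and between sets of cells. DESeq2's Wald test called 3, 4, 0, 3 and 4 members in the same order, against 8, 12, 3, 13 and 15. Without cells that held 3 or more UMIs of neutrophil/monocyte, erythroid and megakaryocyte markers together, 2, 6, 4, 7 and 7 were called, and the early gate kept none of its 5 higher calls. That filter left 57 of 428 and 192 of 724 cells in the progenitor gate. It left 393 of 622 and 1763 of 2052 of the other Cd3g or Il2ra cells, and 410 of 451 and 480 of 501 commitment gate cells. The filter counts raw UMIs and so depends on depth, and it does not show that a removed cell was of another lineage. Fits named as without other blood cells or without cells of other lineages are fits with this filter. Calls over all genes fell as well against the progenitor gate. For the early gate they went from 1080 higher and 1016 lower to 219 and 160 by DESeq2 and to 219 and 245 without those cells. The Cd3g gate went from 1540 and 1514 to 544 and 400 by DESeq2 and to 622 and 572 without those cells. The commitment gate went from 1757 and 1603 to 649 and 493 by DESeq2 and to 761 and 624 without those cells. The Il2ra gate went from 50 and 34 to 9 and 9 by DESeq2, but to 89 and 57 without those cells. Against other Cd3g or Il2ra cells the commitment gate went from 736 and 754 to 223 and 129 by DESeq2. Fewer cells and the absence of cells with these markers cannot be told apart here. Over all fits, 0 to 9 members were called lower in the commitment gate than in other Cd3g or Il2ra cells. In the Il2ra gate 0 to 4 were. Without cells of other lineages the first comparison had 4 higher and 3 lower (all genes 552 and 507). In cells with 3000 to 8000 UMIs it had 4 and 2 (all genes 423 and 336). Of the 51 called differences, 10 stayed called in all 11 other fits: *Fbp1* in 3 comparisons, *Ldhb* and *Pgls* in 2 each, and *Gpi1*, *Pfkl* and *Pkm* in 1 each. All 51 had the same sign in both libraries. In 35 of them the fitted change was under 1.5-fold.

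**Figure D2:**
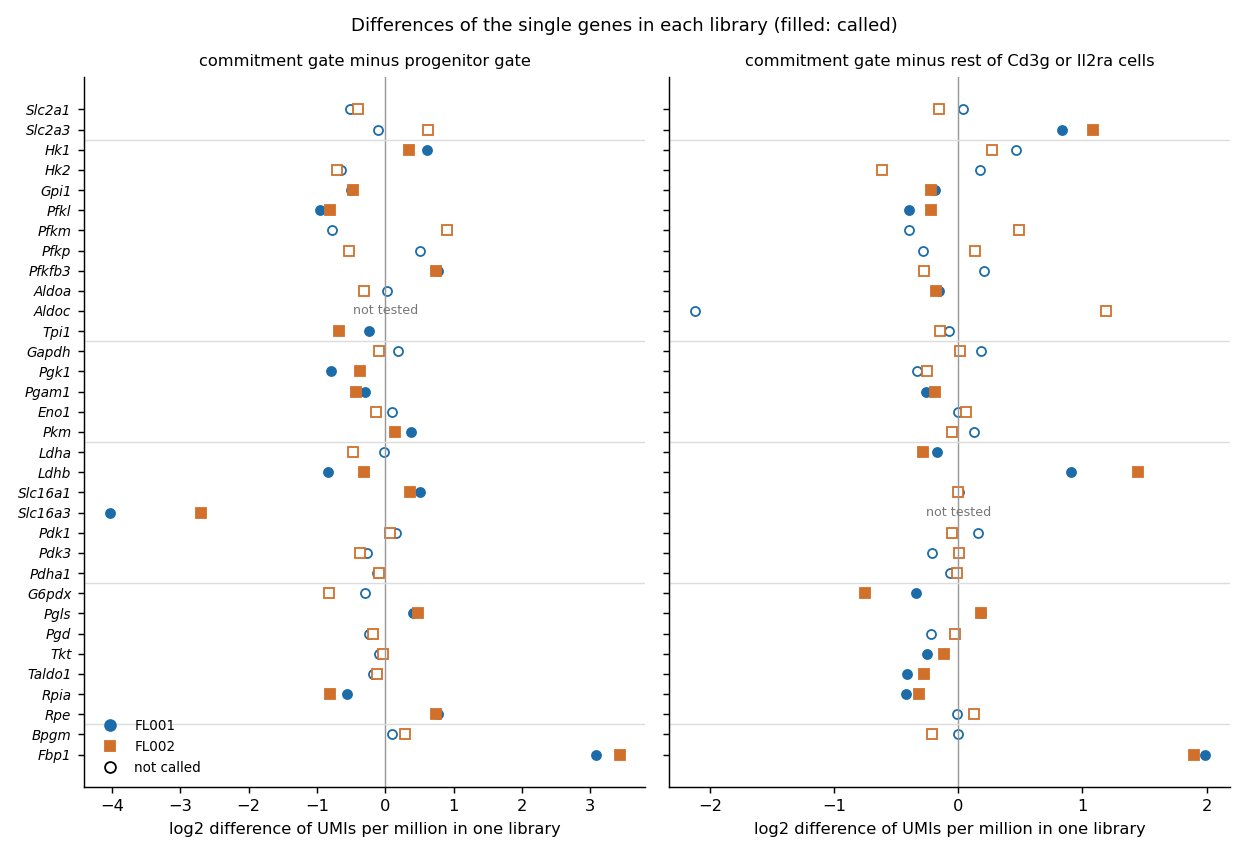
Log2 difference of CPM of each gene in FL001 and FL002, for the commitment gate against the progenitor gate (left) and against the other cells of the Cd3g or Il2ra gate (right), with genes in pathway order, lines between role groups and filled symbols for called genes. *Fbp1* is the highest point on both sides, at 3.08 and 3.43 on the left and 1.99 and 1.90 on the right, and *Slc16a3* is the lowest on the left.

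*Fbp1*, fructose-1,6-bisphosphatase, which hydrolyses fructose 1,6-bisphosphate and so opposes phosphofructokinase, was the member with the largest rise in the Cd3g and commitment gates against the progenitor gate. It lies on the minus strand of chromosome 13, from 62864753 to 62888282 in GENCODE M21 (GRCm38), and no other gene of that annotation overlaps it. Its level in FL001 was 13.2, 8.42, 74.6, 55.1 and 113 CPM in the progenitor, early, Cd3g, Il2ra and commitment gates. In FL002 it was 13.4, 17.2, 74.3, 49.8 and 145 CPM. In both libraries the 3 gates with T-lineage markers stood above the progenitor and early gates, and the commitment gate stood highest, with intervals that did not overlap those of any other gate (102 to 124 CPM in FL001 and 130 to 161 CPM in FL002).

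*Fbp1* rose from the progenitor to the Cd3g gate by 2.51 ± 0.17 (5.68-fold, adjusted p = 1.6e-45) and to the commitment gate by 3.31 ± 0.16 (9.93-fold, adjusted p = 9.05e-19). It was also higher in the commitment gate than in the other Cd3g or Il2ra cells, by 1.93 ± 0.09 (3.80-fold, adjusted p = 1.95e-09). These 3 differences stayed called in all alternatives, including those without the other blood cells, where they were 2.99, 3.71 and 1.83. Of the Cd3g gate, 168 of 327 cells in FL001 and 198 of 873 in FL002 were also in the commitment gate. Outside the commitment gate, Cd3g cells had a lower level of *Fbp1*, given below, which was still above that of the progenitor gate. From the progenitor to the early gate the log2 difference of *Fbp1* was 0.02 ± 0.22 (adjusted p = 0.96), with opposite signs in the libraries.

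The lower *Fbp1* of the Il2ra gate than of the Cd3g gate (fell by 0.51 ± 0.08 on the log2 scale, adjusted p = 0.00111) was looked at again without commitment cells, a split chosen after the values were seen. Outside the commitment gate the Il2ra and Cd3g gates had 27.7 [22.9, 33.2] and 30.4 [22.2, 40.7] CPM in FL001 and 38.9 [34.4, 43.8] and 38.9 [32.5, 46.1] CPM in FL002. These intervals overlap in both libraries. Within the commitment gate, cells with no *Il2ra* UMI had 119 and 194 CPM and cells with *Il2ra* had 109 and 108 CPM, so that only in FL002 were the intervals apart.

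Among cells of the Cd3g or Il2ra gate, the level of *Fbp1* stepped up with the number of commitment gene UMIs in the cell, a split chosen after the values were seen. With 0, 1, 2 to 3 and 4 or more such UMIs it was 24.9, 47.2, 92.1 and 125 CPM in FL001 and 35.3, 55.4, 102 and 214 CPM in FL002. Commitment gate cells were also grouped by each gene, with at least 1 UMI of *Ptcra*, *Lef1* or *Bcl11b*. These groups had 126, 127 and 122 CPM in FL001 and 161, 185 and 215 CPM in FL002. A cell could be in several groups, so they do not show the level with 1 gene alone. Most commitment cells still showed none: 41.2% of them had an *Fbp1* UMI in FL001 and 32.5% in FL002, against 9.35% and 7.04% of progenitor gate cells and 10.9% and 5.24% of progenitor or early gate cells with 10 or more neutrophil/monocyte UMIs. With every cell thinned to 1500 UMIs these shares were 15.3% and 15.8% against 1.64% and 2.76%.

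In empty droplets *Fbp1* was at 44.1 and 38.3 CPM. The progenitor and early gates were below that level in both libraries, and the 3 gates with T-lineage markers above it. The intervals of the Il2ra gate and of empty droplets overlapped in both libraries. Without commitment cells, the levels of the Il2ra and Cd3g gates given above were below that of empty droplets in FL001. In FL002 they were close to it. The 16 and 12 progenitor or early gate cells with 10 or more erythroid UMIs held 0 *Fbp1* UMIs, which at their depth allowed up to 27.8 and 59.5 CPM (upper 95% limits). The part of free RNA in the levels was not tested.

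**Figure D3:**
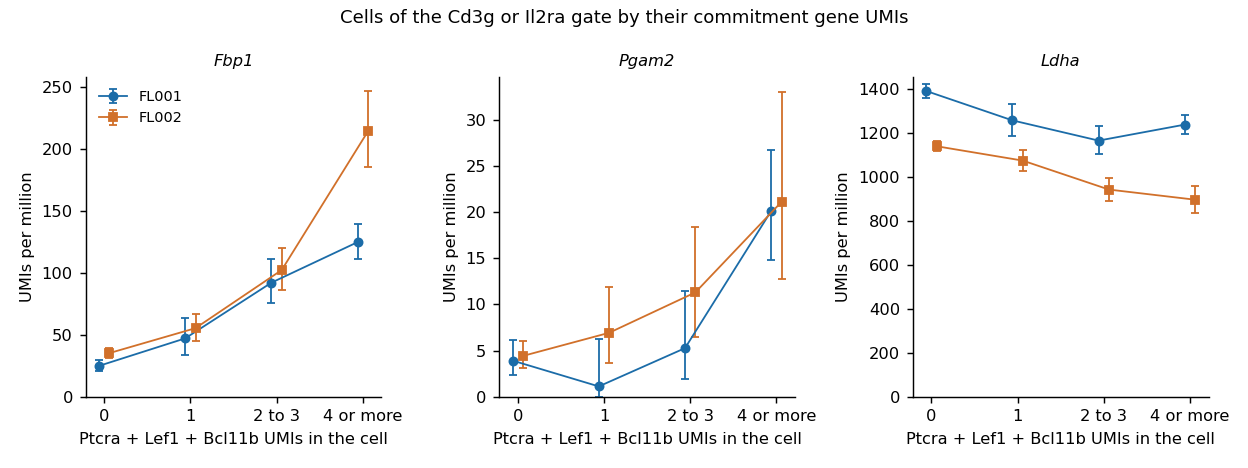
CPM of *Fbp1*, *Pgam2* and *Ldha* in cells of the Cd3g or Il2ra gate, by the number of *Ptcra*, *Lef1* and *Bcl11b* UMIs in the cell, with 95% Poisson intervals; axes start at 0. *Fbp1* goes from 24.9 to 125 CPM in FL001 and from 35.3 to 214 CPM in FL002.

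*Bpgm*, bisphosphoglycerate mutase, which makes the 2,3-bisphosphoglycerate of red cells, was at 21.2 to 30.4 CPM in all gates and was called in none of the comparisons.

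At the entry of the pathway, *Slc2a1* and *Slc2a3* encode the glucose transporters GLUT1 and GLUT3. *Slc2a1* was at 27.5, 21.9, 21.2, 17.9 and 19.3 CPM in FL001 and 19.8, 22.4, 17.0, 15.9 and 14.8 CPM in FL002, and was not called in any comparison. *Slc2a3* was at 23.5, 13.8, 16.3, 15.5 and 21.8 CPM in FL001 and at 21.2, 15.8, 23.6, 15.9 and 32.5 CPM in FL002. *Slc2a3* fell from the progenitor to the early gate by 0.55 ± 0.18 on the log2 scale (adjusted p = 0.0187), with a log2 difference of -1.14 (adjusted p = 0.0112) without the other blood cells, and was higher in the commitment gate than in other Cd3g or Il2ra cells by 0.97 ± 0.15 (1.95-fold, adjusted p = 0.000433). *Slc2a3* made up 46.0% of the pair's UMIs in the progenitor gate and 53.1% [44.7, 61.3] in the commitment gate of FL001, and 51.7% and 68.8% [59.3, 77.2] in FL002, where the interval of the progenitor gate was 44.0% to 59.4%. The mean shift of both libraries, 12 percentage points, was 3.91 without the other blood cells and 4.73 in cells with 3000 to 8000 UMIs.

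Of the 10 genes of upper glycolysis, 9 were tested in the commitment gate against the progenitor gate, where 2 were higher and 3 lower (all genes 17.6% and 16.1%). *Pfkl*, the liver-type subunit of phosphofructokinase, which commits glucose to glycolysis, had 94.5, 87.2, 59.1, 57.8 and 48.7 CPM in FL001 and 75.5, 71.1, 51.6, 47.8 and 43.1 CPM in FL002. These values were lower at each gate in this order in both libraries. Of neighbouring gates, only the early and Cd3g gates had intervals apart (76.9 to 98.5 and 50.5 to 68.7 CPM in FL001, 64.4 to 78.2 and 45.1 to 58.7 CPM in FL002). Empty droplets were at 81.6 and 48.0 CPM. From the progenitor to the commitment gate *Pfkl* fell by 0.86 ± 0.14 on the log2 scale (1.81-fold lower, adjusted p = 7.48e-06). *Gpi1*, glucose-6-phosphate isomerase, fell from 281 and 232 to 199 and 166 CPM (adjusted p = 0.00055), and *Tpi1*, triosephosphate isomerase, from 371 and 363 to 313 and 226 CPM (adjusted p = 0.00162).

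*Pfkfb3*, whose product makes the phosphofructokinase activator fructose 2,6-bisphosphate, rose from 8.43 and 6.14 to 14.4 and 10.2 CPM (log2 difference 0.79, adjusted p = 0.0271). Without the other blood cells its difference was 1.47 and was not called (adjusted p = 0.079). *Hk1*, a hexokinase, rose from 25.6 and 23.1 to 38.9 and 29.3 CPM (adjusted p = 0.0227). *Hk2*, the hexokinase often induced with growth, went from 15.5 and 12.7 to 9.87 and 7.64 CPM and was not called (adjusted p = 0.056).

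The hexokinase and phosphofructokinase choice moved with these genes. *Hk1* made up 62.3% [54.0, 70.0] of hexokinase UMIs in the progenitor gate and 79.8% [73.0, 85.5] in the commitment gate of FL001, and 64.5% [56.3, 72.1] and 79.3% [69.3, 87.3] in FL002. The share of *Pfkl* among the 3 phosphofructokinase genes went from 80.8% to 68.0% and from 82.3% to 70.8%. The rest went to different genes in the libraries: in FL001 *Pfkp*, the platelet type, went from 10.2% to 23.4%, and in FL002 *Pfkm*, the muscle type, from 6.15% to 17.4%. *Pfkm* had 3.54 to 10.6 CPM and *Pfkp* 6.36 to 19.8 CPM, and neither was called in a comparison.

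*Aldoa*, the main aldolase, had 346 to 593 CPM, was called higher in the early gate and lower in the commitment gate than in other Cd3g or Il2ra cells, and held over 99% of aldolase UMIs in each gate. Without the other blood cells the log2 differences of *Aldoa* were 0.11 and -0.13, and neither was called (adjusted p = 0.57 and 0.101). *Aldoc* had 0.839 to 3.42 CPM.

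**Figure D4:**
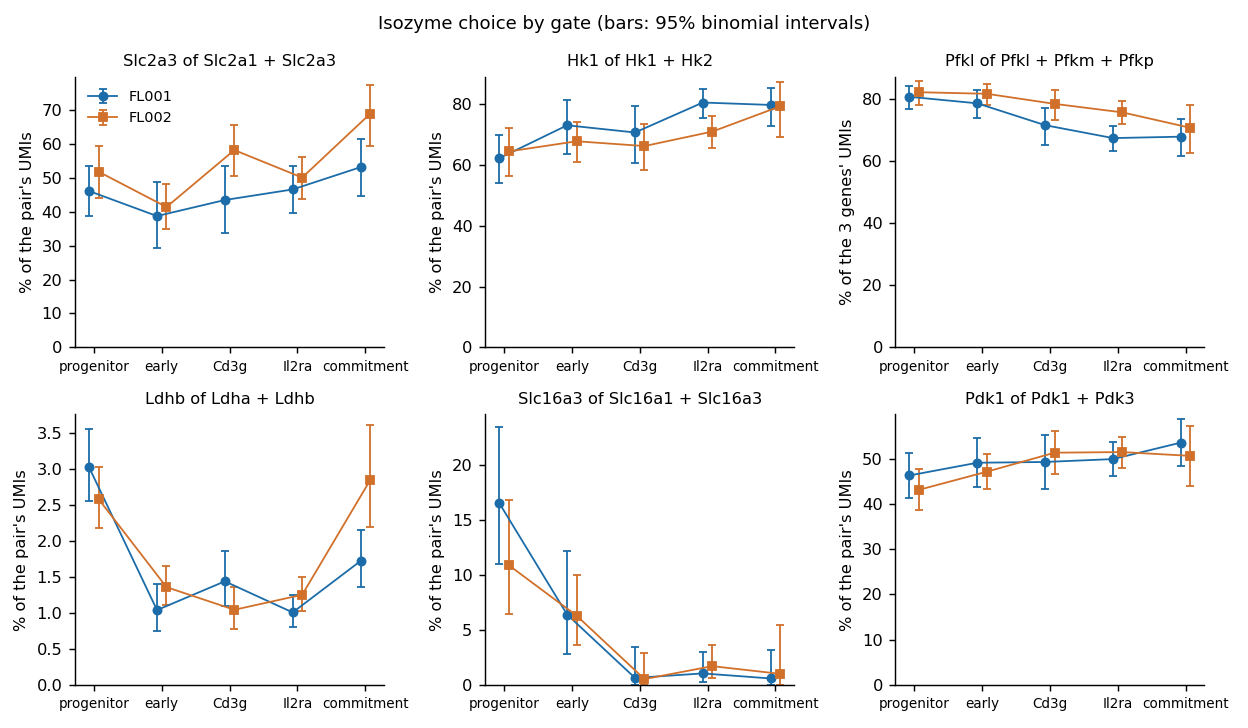
Percent of an isozyme group's UMIs taken by the named isozyme in each gate of FL001 and FL002, with 95% binomial intervals and axes from 0. *Hk1* goes from 62.3% and 64.5% in the progenitor gate to 79.8% and 79.3% in the commitment gate, *Slc16a3* drops from 16.6% and 10.9% to 0.578% and 1.0%, and *Ldhb* is lower in the 3 middle gates.

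In lower glycolysis *Pkm*, pyruvate kinase, which makes pyruvate and ATP, was the most abundant gene, with 846, 1030, 1091, 1008 and 1091 CPM in FL001 and 803, 916, 953, 890 and 884 CPM in FL002. It rose by 0.33 ± 0.08 (adjusted p = 0.000497) in the Cd3g gate and by 0.30 ± 0.08 (adjusted p = 0.00589) in the commitment gate, both against the progenitor gate, and without the other blood cells only the first stayed called (log2 differences 0.21 and 0.15, adjusted p = 0.0427 and 0.24). *Pgam1*, phosphoglycerate mutase, fell from 399 and 388 CPM in the progenitor gate to 324 and 288 CPM in the commitment gate (log2 difference -0.32, adjusted p = 0.00687), with -0.25 and no call without the other blood cells (adjusted p = 0.109).

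*Pgk1*, phosphoglycerate kinase, fell from 28.0 and 12.7 to 16.1 and 9.76 CPM (log2 difference -0.61, adjusted p = 0.0316), with -0.34 and no call without the other blood cells (adjusted p = 0.677). *Gapdh* was at 220.5 to 250.4 CPM and *Eno1*, enolase, at 113 to 211 CPM, and neither was called. Their levels are uncertain: 82.9% of the 50-base windows in the last 300 bases of a *Gapdh* transcript also occur in transcripts of 98 other annotated genes, and an even larger part of those of *Eno1* in 1 other gene. No other member shared over 5% of its windows.

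*Ldha*, the lactate dehydrogenase subunit that favours lactate, was the most abundant member at 923 to 1404 CPM. It was lower in the commitment gate than in other Cd3g or Il2ra cells by 0.24 ± 0.03 on the log2 scale (1.18-fold, adjusted p = 0.000151) and lower in the Il2ra than in the Cd3g gate (1.09-fold, adjusted p = 0.0204). Against the progenitor gate it was not called, with 1227 and 1212 CPM in FL001 and 1277 and 919 CPM in FL002 in the progenitor and commitment gates (adjusted p = 0.079).

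*Ldhb*, the subunit typical of tissues that oxidise lactate, was at 38.3, 13.8, 20.5, 12.9 and 21.3 CPM in FL001 and 33.9, 17.0, 12, 13.47 and 27.0 CPM in FL002. It dropped after the progenitor gate in both libraries. In FL002 the commitment gate was above the early, Cd3g and Il2ra gates. In FL001 it was above the early and Il2ra gates but near the Cd3g gate, with intervals of 16.8 to 26.6 and 15.6 to 26.5 CPM. There *Ldhb* was thus not clearly up again. *Ldhb* fell in the early gate by 1.16 ± 0.16 on the log2 scale (adjusted p = 8.04e-12) and was higher in the commitment gate than in other Cd3g or Il2ra cells by 1.18 ± 0.18 (2.26-fold, adjusted p = 0.000296). It took 3.02% and 2.58% of lactate dehydrogenase UMIs in the progenitor gate, 1.01% to 1.44% in the early, Cd3g and Il2ra gates, and 1.72% and 2.84% in the commitment gate.

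The 2 monocarboxylate transporters went opposite ways. *Slc16a1*, which encodes the broadly expressed lactate transporter MCT1, rose from 33.4 and 32.6 to 47.6 and 41.6 CPM in the commitment gate (log2 difference 0.48, adjusted p = 0.0221), with a difference of 0.46 that was not called without the other blood cells (adjusted p = 0.257). *Slc16a3* encodes MCT4, the lactate exporter of highly glycolytic cells, and lies on chromosome 11, from 120948480 to 120960868 (plus strand, GENCODE M21). It had 25, 8, 1, 3 and 1 UMIs in the 5 gates of FL001 and 17, 16, 1, 6 and 1 UMIs in FL002.

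The progenitor gate thus had 24.1 [3.95, 990.1] times the *Slc16a3* level of the commitment gate in FL001 and 9.48 [1.48, 396] times in FL002, and the fall was called (adjusted p = 4.76e-05). Cells with markers of other lineages held many of these UMIs. In the progenitor or early gate of FL001, cells with 10 or more neutrophil/monocyte, megakaryocyte or erythroid UMIs had 16, 2 and 2 *Slc16a3* UMIs (8.43, 25.7 and 15.1 CPM), and cells with fewer than 3 UMIs of these markers together had 6 (4.55 CPM). In FL002 they had 8, 3 and 2 UMIs (5.50, 65.7 and 32.3 CPM) against 4 (0.942 CPM). Without the other blood cells too few UMIs were left for a test. Empty droplets held 3 and 2 *Slc16a3* UMIs (3.31 and 1.78 CPM), at most the floor of 3 counts.

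**Figure D5:**
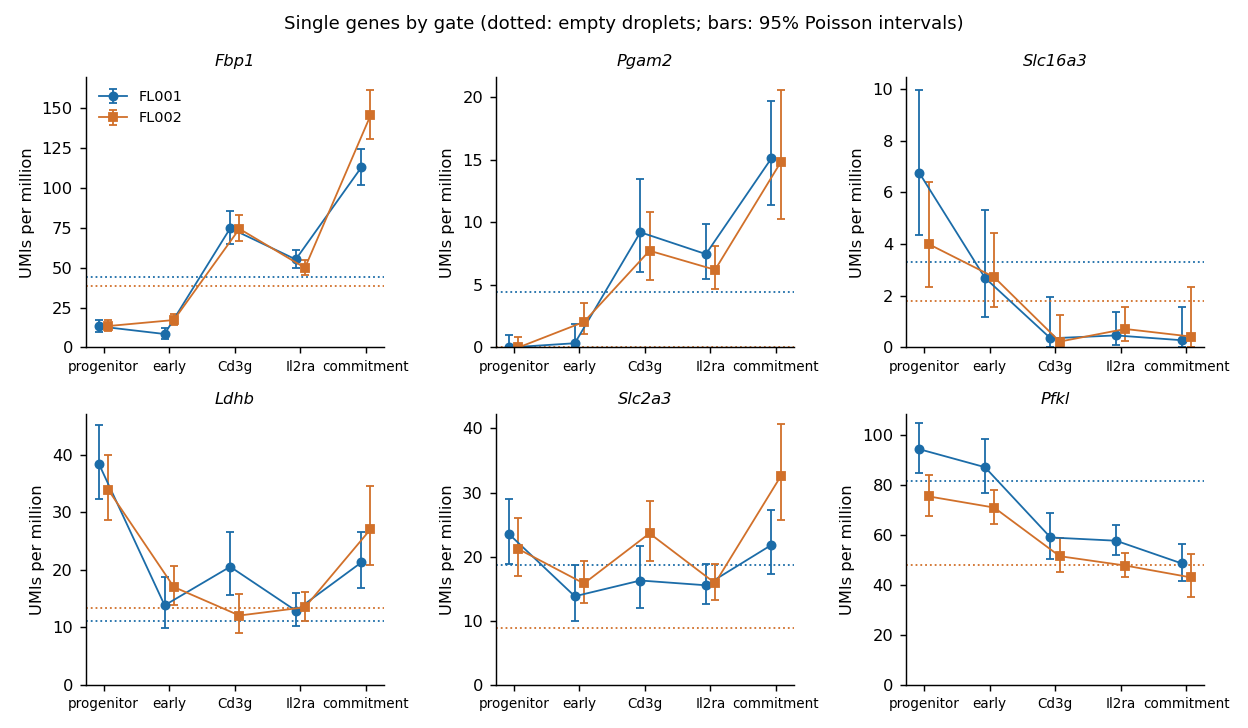
CPM of 6 genes by gate in FL001 and FL002, with 95% Poisson intervals, linear axes from 0 and dotted lines at the level of empty droplets. *Fbp1* and *Pgam2* are highest in the commitment gate, *Slc16a3* and *Pfkl* in the progenitor gate, and *Ldhb* and *Slc2a3* are higher in the commitment gate than in the Il2ra gate.

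The genes that decide the fate of pyruvate stayed within a narrow range. *Pdha1*, of the pyruvate dehydrogenase that feeds the citric acid cycle, was at 158 to 178 CPM. *Pdk1* and *Pdk3*, kinases that inhibit this enzyme, were at 48.0 to 56.3 and 47.3 to 63.3 CPM. None of the 3 was called in any comparison. The share of *Pdk1* in the pair went from 46.3% [41.3, 51.4] to 53.6% [48.3, 58.8] in FL001 and from 43.1% [38.6, 47.7] to 50.6% [44.1, 57.2] in FL002 between the progenitor and commitment gates, and the intervals overlap in both.

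Within the pentose phosphate pathway the genes did not move as a block. *Pgls*, 6-phosphogluconolactonase of the oxidative arm, was at 392, 424, 486, 479 and 519 CPM in FL001. In FL002 it was at 430, 472, 551, 536 and 600.0 CPM. It was the most abundant in all gates of FL002 and in the Cd3g, Il2ra and commitment gates of FL001. In the progenitor and early gates of FL001 *Tkt* was above it, at 425 and 501 CPM. *Taldo1* was also above it in the early gate of FL001, at 445 CPM. *Pgls* rose from the progenitor to the commitment gate by 0.48 ± 0.09 (1.40-fold, adjusted p = 3.53e-05), and this stayed called in all alternatives. *G6pdx*, glucose-6-phosphate dehydrogenase, the first enzyme of that arm, was instead lower in the commitment gate than in other Cd3g or Il2ra cells, at 17.3 against 22.1 CPM and 11.8 against 20.2 CPM (log2 difference -0.53, adjusted p = 0.0479). Without the other blood cells the difference was -0.48 and was not called (adjusted p = 0.162). *Pgd*, which follows them, was at 68.5 to 88.6 CPM and was not called.

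In the arm that interconverts sugars, *Rpe* and *Rpia*, which both act on ribulose 5-phosphate, went opposite ways. *Rpe*, the epimerase, was at 24.6, 34.7, 40.7, 42.1 and 41.7 CPM in FL001 and 22.4, 27.4, 33.4, 35.4 and 37.2 CPM in FL002. *Rpia*, the isomerase that makes ribose 5-phosphate, was at 82.9, 81.5, 63.3, 70.7 and 56.2 CPM and 80.5, 77.9, 58.8, 53.8 and 46.0 CPM. From the progenitor to the commitment gate *Rpe* rose by 0.80 ± 0.18 (1.74-fold, adjusted p = 0.000469) and *Rpia* fell by 0.63 ± 0.14 on the log2 scale (1.55-fold lower, adjusted p = 0.000499). Without the other blood cells the log2 differences were 0.61 for *Rpe* and -0.29 for *Rpia*, and neither was called (adjusted p = 0.131 and 0.446).

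*Tkt*, transketolase, and *Taldo1*, transaldolase, were higher in the early gate than in the progenitor gate and lower in the commitment gate than in other Cd3g or Il2ra cells. Without the other blood cells the early log2 difference of *Tkt* was 0.16 and not called (adjusted p = 0.33). Its commitment gate difference was then -0.16 and stayed called (adjusted p = 0.0449). *Taldo1* had 333 and 311 CPM in the progenitor gate, 445 and 375 CPM in the early gate and 295 and 284 CPM in the commitment gate. Its early rise was 0.35 ± 0.07 (adjusted p = 1.89e-06), and without the other blood cells the difference was 0.13 and not called (adjusted p = 0.536). The neutrophil/monocyte markers were higher in the early than in the progenitor gate in FL001 and lower in FL002, and their part in the result was not tested.

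The promoters of the most changed and the most abundant members are shown because a hypoxia response element core (ACGTG) and an E-box (CACGTG, which contains that core) are the letters best known from glycolysis promoters. Of 33 members 32 had a promoter entry in the RefSeq table (GRCm38.p6; the first listed start of each gene, 250 bases before it and 50 after). ACGTG on either strand was in 13 of the 32 windows (40.6%), against 19.7% of 27025 promoters of the same length, and CACGTG was in 3 (9.38%), against 7.24%. The 27025 promoters were not matched to the members in expression or base composition, and no test was made. The 250 bases before the start of *Ldha* hold 5 matches of ACGTG or its reverse complement CACGT, with 2 CACGTG, those before *Slc16a3* hold 2 ACGTG and those before *Fbp1* hold none. Each CACGTG holds both ACGTG and CACGT and so counts as 2 of these overlapping matches. The RefSeq starts of *Ldha* and *Slc16a3* lie downstream of the start of the gene in GENCODE M21, so that these 2 windows fall within the annotated gene. A match is a description of letters and not a site. Matches are in capitals below, 5′ to 3′ on the gene's strand, for chr7:46845554-46845803 (plus), chr11:120948817-120949066 (plus) and chr13:62888283-62888532 (minus).
Ldha: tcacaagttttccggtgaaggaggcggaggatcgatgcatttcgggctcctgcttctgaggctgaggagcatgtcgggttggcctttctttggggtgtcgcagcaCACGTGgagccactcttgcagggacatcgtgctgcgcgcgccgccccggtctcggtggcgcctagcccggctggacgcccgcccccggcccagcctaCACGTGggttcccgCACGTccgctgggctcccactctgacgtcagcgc
Slc16a3: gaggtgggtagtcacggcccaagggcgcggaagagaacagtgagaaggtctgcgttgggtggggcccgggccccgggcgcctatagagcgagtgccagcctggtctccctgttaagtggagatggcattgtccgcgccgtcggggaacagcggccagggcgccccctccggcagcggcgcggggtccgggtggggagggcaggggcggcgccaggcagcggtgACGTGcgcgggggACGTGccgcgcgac
Fbp1: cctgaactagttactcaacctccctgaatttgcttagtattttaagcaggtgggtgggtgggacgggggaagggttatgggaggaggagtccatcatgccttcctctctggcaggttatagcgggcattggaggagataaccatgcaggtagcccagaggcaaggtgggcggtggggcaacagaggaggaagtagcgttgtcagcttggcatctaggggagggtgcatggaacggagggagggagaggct

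Genes next to the members in these pathways were counted from a list of 53 others, of which 29 were tested in the commitment gate against the progenitor gate. There 7 rose and 4 fell, near the 17.6% and 16.1% of all genes, and the median log2 difference was 0.05. *Pgam2*, the muscle form of phosphoglycerate mutase, had 0 UMIs in the progenitor gate of both libraries and 54 and 35 UMIs (15.1 and 14.8 CPM) in the commitment gate. These levels were 18.7 and 20.9 times a floor of 3 UMIs in the progenitor gate of the same library. Counting error in the commitment gate is not included. Like *Fbp1* it was highest in cells with 4 or more commitment gene UMIs, at 20.1 and 21.1 CPM.

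*Pygl*, liver glycogen phosphorylase, had 26 and 30 UMIs in the progenitor gate and 0 and 2 in the commitment gate, and was called lower (adjusted p = 8.1e-06). *Pgm2*, a phosphoglucomutase, rose from 23.9 and 19.6 to 55.8 and 34.0 CPM (adjusted p = 8.28e-06), and *H6pd*, the hexose-6-phosphate dehydrogenase of the endoplasmic reticulum, from 2.18 and 6.37 to 9.30 and 10.6 CPM (adjusted p = 0.00423).

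Of 26 hypoxia response genes outside the 33, 23 were tested in the same comparison, and 10 rose and 4 fell (all genes 17.6% and 16.1%; median log2 difference 0.34), so that the lower share was near that of all genes. *Vegfa*, an angiogenic growth factor, rose from 3.81 and 3.78 to 34.4 and 24.6 CPM, *Bhlhe40*, a transcriptional repressor, from 1.09 and 0.944 to 12.1 and 9.76 CPM, and *Ddit4*, an inhibitor of mTOR signalling, from 2.99 and 4.25 to 16.9 and 19.5 CPM. *Bnip3*, a mitophagy receptor, fell from 23.4 and 27.6 to 5.07 and 5.09 CPM.

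Of the Myc family and growth regulators 3 of 19 tested rose and 4 fell, near the 17.6% and 16.1% of all genes. *Mycn* fell from 75.6 and 66.6 to 9.87 and 12.3 CPM and *Foxo3* from 38.6 and 34.5 to 19.5 and 18.2 CPM, while *Mxd4*, a Myc antagonist, rose from 39.4 and 29.3 to 65.7 and 76.8 CPM and *Mxd3* from 5.44 and 6.14 to 13.8 and 8.91 CPM. Cell cycle genes moved too: 8 of 15 S phase genes rose and 0 fell, and 7 of 15 mitosis genes fell and 0 rose. The summed mitosis genes were at 2396 and 2427 CPM in the progenitor gate and 1856 and 1922 CPM in the commitment gate. Their part in the members' changes was not tested.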

How the data were processed

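Raw UMI counts per gene and barcode were deposited by the authors as 2 matrices, which list every barcode. The authors prepared libraries with 10X Chromium, sequenced 3′ ends on an Illumina NextSeq and ran CellRanger (version and annotation not given in the sources used here). The submitters' processing notes name the build mm9, while 28339 of the 28692 gene IDs are in GENCODE M21 (GRCm38), from which positions were taken by ID. A 3′ UMI counts molecules and was not scaled by length.

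Barcodes were kept with at least 1500 UMIs, at least 500 genes and at most 10% UMIs of mt- genes. Scrublet in scanpy marked 7 and 9 cells, under 0.5%, and was taken not to have worked, so doublets stayed in the main analysis. The alternative without the top 5% of cells by these scores therefore cannot show what doublets do to the results. Empty droplets were barcodes with 1 to 100 UMIs. CPM and shares were computed per library and gate. Both gates of a comparison come from the same library, so the library was the block. edgeR 4.0.16 (R 4.3.3) quasi-likelihood tests with TMM scaling used genes with at least 40 UMIs over the 4 sums of a comparison, and DESeq2 1.42.0 was an alternative. The edgeR fit was also tested on simulated sums that gave all genes the same spread. That test cannot show how calls behave where the spread differs between genes. The other steps were not tested on simulated data.

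The members, gates and lists were chosen with earlier results of these data known. Every member is named, with values for the largest differences and all isozyme groups. Of the other lists at most 4 genes called between the commitment and progenitor gates are named, by size of the log2 difference; for S phase and mitosis genes only counts are given. Cells with 10 or more marker UMIs of another lineage and the splits by commitment gene UMIs were chosen after values were seen. Alternatives changed the minimum of UMIs, the mitochondrial maximum, the depth, the gates, the other blood cells, doublet scores, scaling, filter, test and block.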

Additional observations from a re-analysis of the deposited data

How the results depend on the processing

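The called differences of single members kept their sign in all fits and in each library alone, but not their calls: of 51, DESeq2's Wald test kept 14, the fit with no replicate block 21, and the fit without other blood cells 24 of 49, while DESeq2 size factors kept 50. With no replicate block the members called were 1 for the early gate, 0 for the Il2ra gate, 1 for the commitment gate against other Cd3g or Il2ra cells and 9 against the progenitor gate. For the Cd3g gate 6 members were higher and 4 lower. Over all genes that fit called 328 higher and 308 lower for the early gate, and 1025 and 1009 for the Cd3g gate. It called 1 and 0 for the Il2ra gate, and 115 and 51 for the commitment gate against other Cd3g or Il2ra cells. Against the progenitor gate the commitment gate had 1351 and 1213. By DESeq2's Wald test the 5 counts were 3, 4, 0, 3 and 4, and without other blood cells 2, 6, 7 and 7 for all but the Il2ra gate. The counts over all genes for these fits are given above, beside the members' counts. Cells with 3000 to 8000 UMIs gave 1 for the Il2ra gate and 6 for the commitment gate against other Cd3g or Il2ra cells, and exclusive gates gave 1 for the Il2ra gate. Over all genes cells with 3000 to 8000 UMIs gave 41 higher and 42 lower calls for the Il2ra gate, and exclusive gates 51 and 42. For the commitment gate against other Cd3g or Il2ra cells, those of 3000 to 8000 UMIs gave 423 and 336. With 1 library left out a test has no residual degree of freedom and was not run. The cause of the lower counts was not tested, and the fits on part of the cells had fewer UMIs. Beside the counts of 0 for the Il2ra gate, 110 genes with no block, 82 by DESeq2 and 950 with edgeR had an unadjusted p under 0.05.

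The summed share, as the mean of both libraries, was 0.589%, 0.624%, 0.614%, 0.578% and 0.570% in the order of the gates. Over UMIs without ribosomal and mt- genes it was 0.822%, 0.860%, 0.837%, 0.793% and 0.778%. Without *Ldha*, *Pkm* and *Pgls* it was 0.340%, 0.355%, 0.332%, 0.316% and 0.308%. Cells with 3000 to 8000 UMIs gave 0.550% in the progenitor and 0.522% in the Il2ra gate, and without other blood cells the progenitor gate had 0.569%. The share left with 1 library out ran from 0.578% to 0.600% for the progenitor, 0.593% to 0.655% for the early, 0.570% to 0.657% for the Cd3g, 0.541% to 0.615% for the Il2ra and 0.528% to 0.611% for the commitment gate.

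Isozyme differences between the commitment and progenitor gates, in percentage points, kept the sign of their mean over both libraries for the 4 genes below, *Pfkp* and *Slc16a1*. The libraries had opposite signs for *Slc2a3* and *Pfkp* in cells with 3000 to 8000 UMIs, for *Pfkp* with exclusive gates and for *Slc16a1* without other blood cells, and with 1 library left out *Aldoa* ran from -0.41 to 0.11, *Ldha* from -0.26 to 1.30 and *Pfkp* from 0.267 to 13.3. *Slc2a3* (12) was 4.73 in cells with 3000 to 8000 UMIs and 3.91 without other blood cells. *Hk1* (16.2) was 13.4 with a minimum of 3000 UMIs, 18.2 in cells with 3000 to 8000 UMIs, 18.4 with stricter gates and 23.3 without other blood cells. *Pfkl* (-12.2) was -7.82 in cells with 3000 to 8000 UMIs, -14.2 with stricter gates and -18.1 without other blood cells. *Pdk1* (7.39) was 6.90 with a minimum of 3000 UMIs, 6.33 with a mitochondrial maximum of 5%, 13.0 in cells with 3000 to 8000 UMIs, 8.35 with stricter gates, 7.12 with exclusive gates, 3.31 without other blood cells and 7.68 without the top doublet scores.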

Other observations

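The libraries, which no stated condition separates, differed in many members at the level of all kept cells, and by over 1.5-fold in 3. *Pfkp* was at 16.5 CPM in FL001 and 8.08 CPM in FL002, a ratio of 2.04 [1.67, 2.49], and was higher in FL001 in all 5 gates. *Pgk1* was at 22.3 and 11.6 CPM, a ratio of 1.93 [1.63, 2.28], again higher in FL001 in all 5 gates, and its ratio in empty droplets was 1.86. *Eno1*, whose end is shared with another annotated gene, had a ratio of 1.57 [1.49, 1.66]. Over the 33 genes the median ratio was 1.10, 16 intervals lay above 1, and only *Pgls* had an interval below 1, at 0.895 [0.868, 0.923]. With 1 library each these are descriptions with no test. The same counts were not made over all genes, so they do not show whether the members differ from other genes.

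*Pgam2* and *Fbp1*, which both rose with the commitment genes, differed in abundance: in cells with 4 or more commitment gene UMIs *Pgam2* was found in 9.03% of FL001 cells and 7.33% of FL002 cells, and *Fbp1* in 45.1% and 39.8%. *Pgam1*, the main mutase, fell over the same gates. *Fbp2*, the muscle form of fructose bisphosphatase, had 0 CPM in FL001 and 0.141 CPM in FL002.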
